A study of Mus musculus with 3 samples.

Results

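The troponin isoform genes were examined by RNA sequencing of hearts taken on postnatal day 9 from mice of the C57BL/6J strain with a wild-type genotype, with 3 samples in all. Members were the rows of the deposited count table whose symbol is Tnni1, Tnni2, Tnni3, Tnnt1, Tnnt2, Tnnt3, Tnnc1 or Tnnc2, which gave 8 of 18038 genes. All samples belong to 1 group with no second genotype, treatment or age, and hearts 1, 2 and 3 below carry the replicate numbers of the labels. The labels do not say whether the samples came from separate animals or litters, so p-values cover the spread among these 3 samples alone, and part of it may be technical. Whole heart tissue was sequenced as bulk RNA, so fewer cells of a type and less RNA per cell cannot be told apart.

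Troponin is the calcium switch of the thin filament in striated muscle. Troponin C binds calcium, troponin I holds back the interaction of actin and myosin until calcium is bound, and troponin T anchors the complex to tropomyosin. Troponin I and T each have a cardiac, a slow skeletal and a fast skeletal gene, whereas troponin C has a gene shared by heart and slow muscle and a second one for fast muscle. In the fetal heart the slow skeletal form of troponin I, Tnni1, is the main troponin I, and the cardiac form Tnni3 takes its place around and after birth.

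Library totals lay between 17766501 and 18768094 counts, and the Spearman correlation across genes of any 2 hearts was 0.986 to 0.994. All 8 cardiomyocyte markers examined were detected in every heart, where detected means 1 CPM (count per 1000000 counts of the library) or more. Heart 1 stood apart in RNA of lung airway: the 8 airway markers summed to 2486 TPM in heart 1, 1.30 in heart 2 and 8.74 in heart 3, with 4096, 1 and 13 counts of Scgb1a1, a product of club cells in the airways. TPM is abundance corrected for gene length and scaled so that all genes of a heart sum to 1000000. Beside each gene called below as varying between hearts, it is said whether the call held with a heart left out.

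The 8 troponin genes together held 2.76% ± 0.155 of all TPM (SD, n = 3 throughout). Tnnt2, Tnni3 and Tnnc1, the cardiac forms of each subunit, ranked 4, 9 and 10 among all genes by mean TPM. Tnni1 followed at rank 134 and the slow skeletal Tnnt1 at rank 1433. The fast skeletal forms were far lower, with Tnni2 at rank 9970, Tnnt3 at 12017 and Tnnc2 at 15507. Of the 8 genes, 6 were detected, and Tnnt3 and Tnnc2 fell below 1 CPM in at least 1 heart. In the order of mean TPM, the ranges over hearts of Tnni3 and Tnnc1 overlapped, and those of all other neighbours (Tnnt2 and Tnni3, Tnnc1 and Tnni1, Tnni1 and Tnnt1, Tnnt1 and Tnni2, Tnni2 and Tnnt3, Tnnt3 and Tnnc2) did not. Counts of all 8 genes were within 0.005 of a whole number in every heart.

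**Figure D1:**
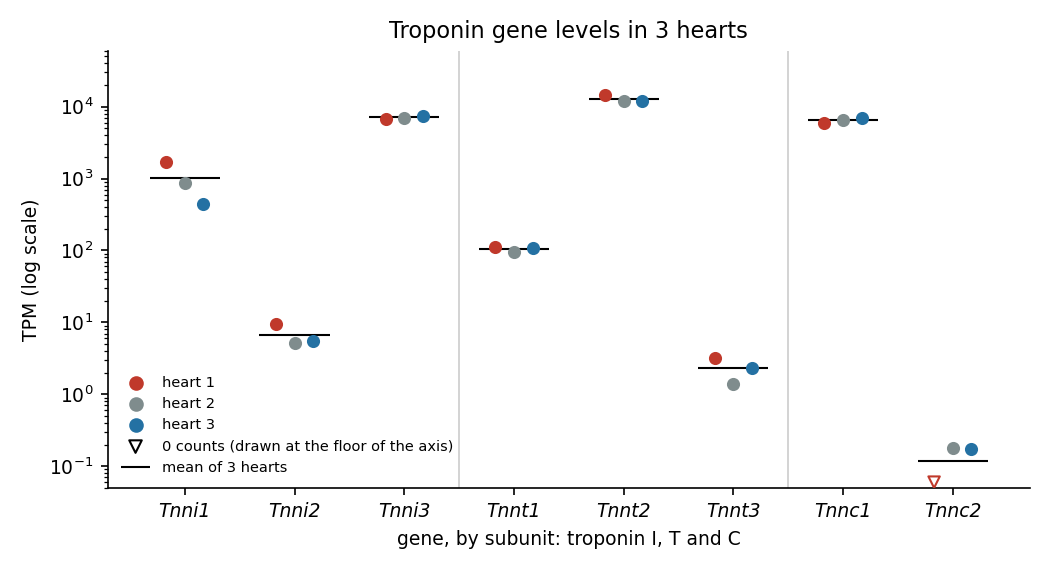
TPM of the 8 troponin genes (log axis) in hearts 1, 2 and 3 (points), with the mean of the 3 hearts as a line; an open triangle marks a heart with 0 counts. The cardiac forms Tnni3, Tnnt2 and Tnnc1 lie at 6001 TPM or more in every heart, the fast skeletal forms Tnni2, Tnnt3 and Tnnc2 at 9.38 TPM or less, and the points of Tnni1 are more spread than those of Tnnt1.

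Tnnt2 encodes cardiac troponin T (Entrez gene ID 21956, GRCm38.p6 chromosome 1, 135836315 to 135852268, plus strand). It was the most abundant troponin transcript, with 14698 TPM in heart 1, 11977 in heart 2 and 12054 in heart 3 (146243, 121778 and 128167 counts). Heart 1 was the highest, by 1.23-fold over the lowest heart. Tnnt1, slow skeletal troponin T (ID 21955, chromosome 7, 4504569 to 4515975, minus strand), was at 110, 95.8 and 108 TPM in hearts 1, 2 and 3, from 988, 896 and 1053 counts. The levels of Tnnt1 were close in all hearts, and Tnnt2 exceeded it 133-, 125- and 112-fold (mean log2 ratio of TPM 6.94 ± 0.129). Tnnt1 gave 0.809% ± 0.0727 of troponin T TPM and Tnnt2 99.2% ± 0.0726.

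Fast skeletal troponin T, Tnnt3 (ID 21957, chromosome 7, 142498771 to 142516213, plus strand), had 29, 14 and 23 counts in hearts 1, 2 and 3, or 3.21, 1.38 and 2.32 TPM. Both Tnnt2 and Tnnt1 were above it in every heart, by mean log2 ratios of 12.53 ± 0.488 and 5.59 ± 0.507. With so few counts the size of these ratios is imprecise. The long non-coding RNA gene Prr33, which was not counted, overlaps the span of Tnnt3 by 8001 bases. The part of Prr33 RNA in the Tnnt3 counts was not tested.

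Troponin C came almost wholly from Tnnc1, the form of heart and slow muscle (ID 21924, chromosome 14, 31208312 to 31211729, plus strand). Tnnc1 was at 6001, 6559 and 6979 TPM in hearts 1, 2 and 3, from 33276, 37660 and 41989 counts. The hearts differed by 1.16-fold at most. The fast skeletal Tnnc2 (ID 21925, chromosome 2, 164777161 to 164779734, minus strand) had 0, 1 and 1 counts. A count of 0 allows up to 3 counts, or 0.556 TPM of Tnnc2 in heart 1. From counts summed over hearts and divided by gene length, Tnnc1 exceeded Tnnc2 by a log2 ratio of 15.73, with an exact 95% Poisson interval of 13.88 to 18.78 that rests on the 2 counts of Tnnc2 and covers counting error only.

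Cardiac troponin I, Tnni3 (ID 21954, chromosome 7, 4518305 to 4522718, minus strand), was the main troponin I in every heart, at 6847, 6969 and 7441 TPM in hearts 1, 2 and 3 (46314, 48525 and 54183 counts). Heart 3 was the highest, by 1.09-fold over heart 1. Tnni1 (ID 21952, chromosome 1, 135783033 to 135810989, plus strand) was at 1726, 862 and 448 TPM, from 15583, 8026 and 4363 counts. Each heart had about double the Tnni1 of the next, in the order heart 1, heart 2, heart 3, and the highest was 3.85-fold above the lowest. Fast skeletal Tnni2 (ID 21953, chromosome 7, 142441816 to 142444410, plus strand) was at 9.38, 5.18 and 5.47 TPM, from 52, 33 and 34 counts.

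The share of troponin I TPM that came from Tnni1 was 20.1% in heart 1, 11% in heart 2 and 5.68% in heart 3. Its mean was 12.3% ± 7.30. All hearts were of day 9, so whether this share follows the progress of the switch between the forms was not tested. As a share of troponin I counts, with no length correction, the values were 25.2% (exact 95% Clopper-Pearson interval 24.8 to 25.5), 14.2% (13.9 to 14.5) and 7.45% (7.24 to 7.66). These intervals cover counting error only, and those of the 3 hearts do not overlap. Tnni3 exceeded Tnni1 by 3.97-fold in heart 1, 8.09-fold in heart 2 and 16.6-fold in heart 3, a mean log2 ratio of 3.02 ± 1.03. All 3 hearts had Tnni3 higher, yet an exact two-sided sign-flip permutation test of 3 hearts cannot go below p = 0.25, the value found for this ratio and for each of the other 8 ratios of 2 genes computed here per heart. Tnni3 exceeded Tnni2 by a mean log2 ratio of 10.1 ± 0.514 and Tnni1 exceeded Tnni2 by 7.09 ± 0.636.

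**Figure D2:**
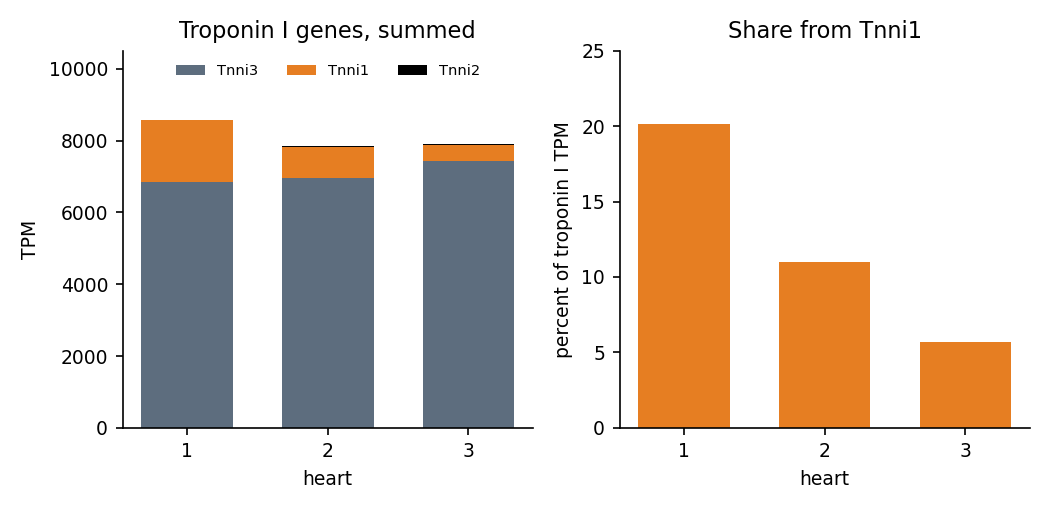
Left, TPM of Tnni3, Tnni1 and Tnni2 stacked for each heart; right, the percent of troponin I TPM from Tnni1 in each heart. The stacks reach 8583, 7836 and 7894 TPM in hearts 1, 2 and 3, while the Tnni1 share is 20.1%, 11% and 5.68%.

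Summed troponin I was at 8583, 7836 and 7894 TPM in hearts 1, 2 and 3. Tnni3 made up 79.8%, 88.9% and 94.3% of it. Between hearts 1 and 3 the difference in Tnni1 was 1278 TPM, that in Tnni3 was -594 TPM, and that in summed troponin I was 689 TPM. Summed troponin T was at 14812, 12074 and 12165 TPM and summed troponin C at 6001, 6559 and 6979 TPM. The RNA of troponin T exceeded that of troponin I by 1.73-, 1.54- and 1.54-fold (log2 0.68 ± 0.0943) and that of troponin C by 2.47-, 1.84- and 1.74-fold (log2 1.00 ± 0.270). Troponin I exceeded troponin C by 1.43-, 1.19- and 1.13-fold (log2 0.32 ± 0.177). Troponin T was the highest and troponin C the lowest of the sums in each heart. The size of these ratios depends on the gene lengths used, and without a length correction troponin T exceeded troponin C by a log2 ratio of 1.82.

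Whether a gene differed between hearts more than genes of similar abundance did was tested across all 12958 detected genes with the goodness of fit test of edgeR (residual deviance given a dispersion trend over abundance, Benjamini-Hochberg adjustment over all genes tested, threshold 0.05). Of all genes tested, 216 varied between hearts, or 1.67%. Of the 6 troponin genes tested, 1 did: Tnni1 had an edgeR adjusted p = 1.25e-12 and ranked 17 among all genes, so that 0.131% of genes had an adjusted p at or below its own. Genes that passed and were highest in heart 1, as Tnni1 was, made up 0.795% of those tested. Those highest in heart 2 made up 0.116% and those highest in heart 3 0.756%. Of the 8 airway markers, 0 were tested, so genes found almost only in heart 1 are missing from these shares. The log2 CPM of Tnni1 in heart 1 minus heart 3 was 1.87, against a median of -0.0047 over all genes tested. Of the 133 genes tested with a higher mean TPM than Tnni1, a count made after the values were seen, 0 passed in edgeR, with 5 at an unadjusted p under 0.05 and 2 called with the DESeq2 trend. Over all genes tested these shares were 1.67%, 6.18% and 1.3%, and whether the 133 genes differ from them was not tested.

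The other 5 troponin genes tested did not pass the threshold (edgeR adjusted p = 1.00 for each). Differences in log2 CPM between heart 1 and heart 3 were 0.62 for Tnni2, 0.23 for Tnnt2, -0.05 for Tnnt1, -0.19 for Tnni3 and -0.30 for Tnnc1. Tnnt3 and Tnnc2 entered only a fit without the filter on low counts, where neither passed (edgeR adjusted p = 1.00 for each). The order of hearts seen in Tnni1 (1, then 2, then 3) was held by 20.8% of all genes tested, and by 0.641% as genes that also passed the test. Tnni1 also passed with any 1 heart left out. The edgeR adjusted p was 8.33e-05 for hearts 2 and 3, 4.54e-08 for hearts 1 and 3, and 0.000820 for hearts 1 and 2. The fit of hearts 2 and 3 does not cover how heart 1 differed from them. The part of airway RNA in the Tnni1 level of heart 1 was not tested.

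**Figure D3:**
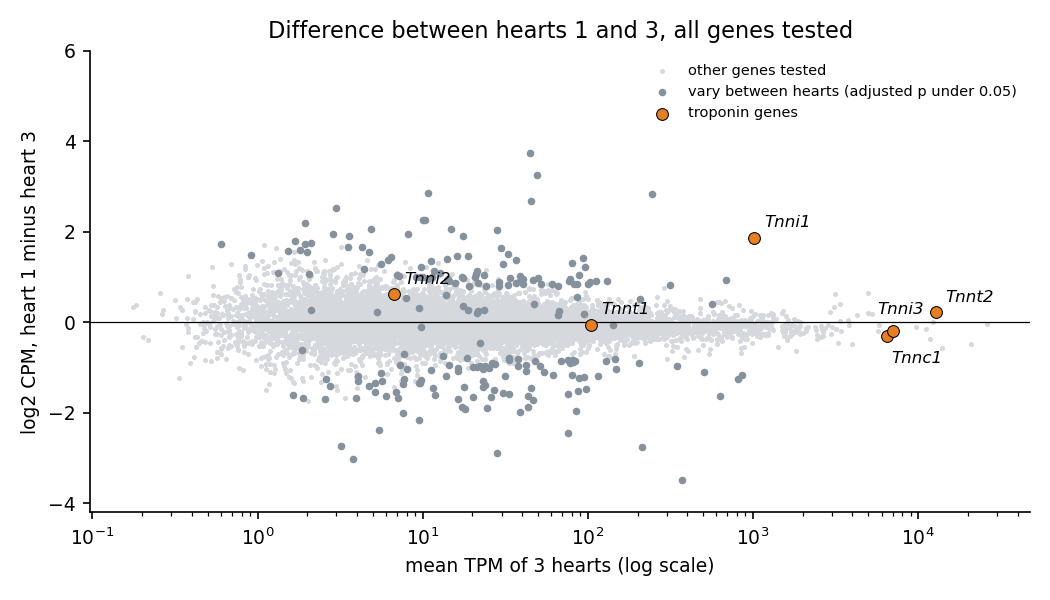
Each point is 1 of the 12958 genes tested: the horizontal axis is mean TPM of 3 hearts (log scale) and the vertical axis the log2 CPM of heart 1 minus heart 3; dark points varied between hearts and orange points are the 6 troponin genes tested. Tnni1 lies at 1.87, and the other 5 troponin genes lie between -0.30 and 0.62.

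The genes whose pattern over the hearts was most like that of Tnni1 were found by the Euclidean distance between log2 CPM deviations from each gene's own mean, over 3 hearts and 12957 other genes. The nearest were Vdr, the vitamin D receptor (distance 0.0236), Ppil6 (0.0577), Mt2, a metallothionein (0.141), Fam163a (0.143) and Anxa8, an annexin (0.161). All 5 were far less abundant than Tnni1, with mean TPM from 1.10 for Fam163a to 28.2 for Mt2. Of these, 4 passed the test of variation and Fam163a did not (edgeR adjusted p = 0.0742). The genes were picked by the same differences between hearts that this test reads, so passing adds no separate support. None of the 4 passed without heart 1 (smallest edgeR adjusted p = 0.350, for Vdr) or without heart 3 (0.0926, for Mt2). All 4 passed without heart 2. They had 32 to 239 counts in a heart, against 4363 to 15583 for Tnni1, and fewer counts make a call harder to reach. With 3 hearts many genes can share a pattern, so the list is a description.

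Tnni1 was set beside 14 other genes known for high expression in the fetal or newborn heart. Of these, 8 varied between hearts, against the 1.67% of all genes, but the list was drawn up with earlier results of these data known. Of the 14, 4 had the order of Tnni1 by TPM (Myh7, Cacna1h, Igf2 and Myl4) and 6 the reverse. Of these, 2 and 5 passed the test. By log2 CPM, 20.8% of all genes tested had the order of Tnni1, and 0.641% had it and passed. The share of all genes with the reverse order was not computed. Myh7, the fetal ventricular and slow skeletal myosin heavy chain, was ordered like Tnni1, at 48.8, 25.5 and 14.8 TPM in hearts 1, 2 and 3 (edgeR adjusted p = 2.59e-11). Part of the Myh7 counts was fractional, so reads shared with a similar gene could affect its level. This limit also applies to Tagln, Mybpc2 and Hbb-bt, which are named below as varying and had fractional counts. Cacna1h, a T-type calcium channel, had the same order at 15.7, 10.8 and 7.52 TPM (edgeR adjusted p = 0.00510), and Dlk1, a growth regulator, was also highest in heart 1 (edgeR adjusted p = 1.58e-06) but lowest in heart 2.

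The 5 genes of the list that passed with the reverse order were Acta1, Nppb, Acta2, Tagln and Ankrd1, and Nppa had that order (3292, 4328 and 4355 TPM in hearts 1, 2 and 3) without passing (edgeR adjusted p = 1.00). Skeletal alpha-actin, Acta1, was at 24.7, 74.2 and 130 TPM in hearts 1, 2 and 3 (edgeR adjusted p = 6.29e-21). Nppb, the B-type natriuretic peptide that rises with wall stress, was at 58.7, 203 and 379 TPM (edgeR adjusted p = 2.87e-28). Acta2, Tagln and Ankrd1 were ordered in the same way (largest edgeR adjusted p = 0.0240). Heart 1, with the most Tnni1 and Myh7 RNA, had the least RNA of these 5 genes. The median of the 14 genes for heart 1 minus heart 3 was a log2 difference of 0.05, close to that of all genes. Without heart 1, 3 of the 14 still varied (Myh7, Acta1 and Nppb), without heart 2 it was 7 (all but Tagln) and without heart 3 it was 5 (Myh7, Acta1, Acta2, Nppb and Dlk1).

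**Figure D4:**
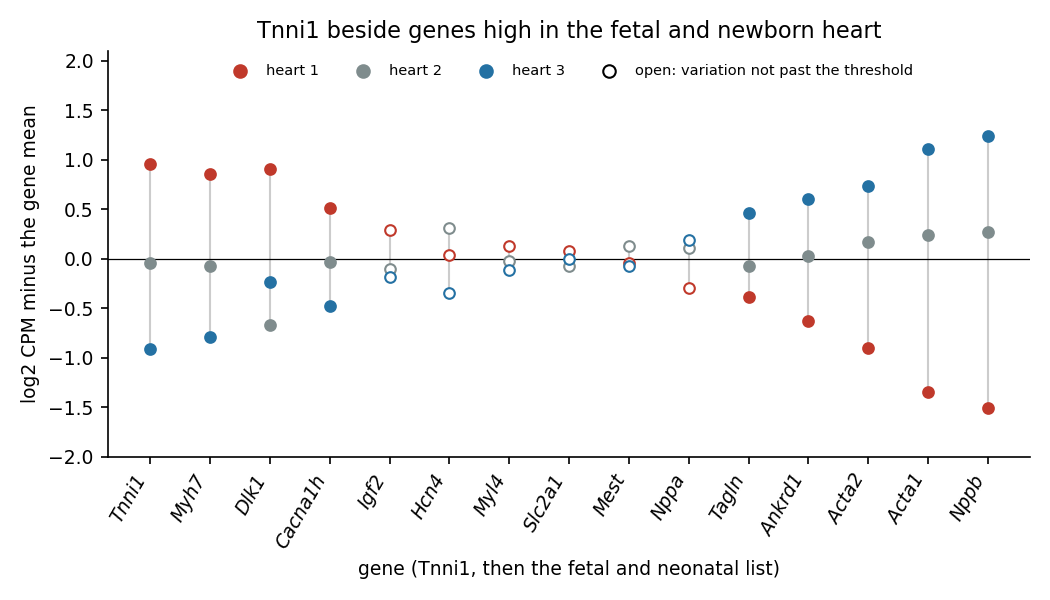
For Tnni1 and 14 genes known for high expression in the fetal or newborn heart, the log2 CPM of each heart minus the gene's own mean; filled points belong to genes that varied between hearts. Heart 1 is the highest and heart 3 the lowest for Tnni1, Myh7 and Cacna1h, and the reverse holds for Tagln, Ankrd1, Acta2, Acta1 and Nppb.

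Partner genes of the troponin complex were read against 1.67% of all genes called and 6.18% at an unadjusted p under 0.05. Among 13 thin filament partners (actins, tropomyosins, tropomodulins, leiomodins and nebulin-related genes), 1 varied, which was Acta1, and 4 had an unadjusted p under 0.05. By TPM, 8 of the 13 were lowest in heart 1 and highest in heart 3, the reverse of Tnni1. The share of all genes with this reverse order was not computed. The list summed to 31058, 37065 and 41901 TPM. Among 11 genes of the thick filament and its light chains, 1 varied, which was Myh7, with 1 at an unadjusted p under 0.05. The order of Tnni1 was held by 7 of the 11 by TPM, against 20.8% of all genes tested by log2 CPM. Orders were counted without a test. They include genes with nearly equal levels, such as Myh6 at 12609, 12257 and 11975 TPM in hearts 1, 2 and 3. Among 15 genes of mature cardiac muscle, 1 varied: Ckmt2, the mitochondrial creatine kinase of muscle, at 512, 983 and 1091 TPM in hearts 1, 2 and 3 (edgeR adjusted p = 0.000226), with 4 of the 15 at an unadjusted p under 0.05. Ckmt2 was lowest in heart 1, the heart with the most Tnni1, and did not pass without heart 1 (edgeR adjusted p = 1.00).

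Possible regulators of troponin were examined the same way. None of 14 kinases and phosphatases that act on troponin I or belong to the same signalling pathways passed the edgeR test, with 0 at an unadjusted p under 0.05 and 0 with the DESeq2 dispersion trend. Among 15 transcription factors of muscle, 0 passed in edgeR, with 1 at an unadjusted p under 0.05 and 0 with the DESeq2 trend. Among 10 splicing factors of muscle, some of which set the isoforms of Tnnt2, 0 passed in edgeR, with 0 at an unadjusted p under 0.05 and 0 with the DESeq2 trend. The order of Tnni1 by TPM was held by 5 of the 14 kinases and phosphatases and 6 of the 15 transcription factors. It was also held by 2 of the 10 splicing factors. The reverse order was held by 1, 0 and 0 genes of these lists. Over all genes tested, 20.8% had the order of Tnni1 by log2 CPM, and the share with the reverse order was not computed. These orders were counted without a test. The table gives counts per gene, so the splice forms of Tnnt2 are not analysed here.

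Markers of other tissues were read beside the slow and fast forms. Of 13 fast skeletal muscle markers in the table, 5 were detected. Of these 5, 2 varied, against 1.67% of all genes tested: Casq1 and Mybpc2, both highest in heart 3. Casq1 did not pass without heart 1 (edgeR adjusted p = 0.128), and Mybpc2 did not pass without heart 3 (0.658). The sum of the 13 was 191, 229 and 252 TPM in hearts 1, 2 and 3, of which Myl1, a light chain, was 168, 190 and 193 TPM. The adult fast myosin Myh1 had 1 count in each heart after rounding, and Myog, the muscle regulator myogenin, had 2, 0 and 2 counts. Another myosin of the list, Myh8, was detected, with 81.9, 131 and 101 counts in hearts 1, 2 and 3 (1.49, 2.32 and 1.72 TPM). The members did not share an order: by TPM, 4 of the 13 were highest in heart 1, as Tnni2 and Tnnt3 were, and 5 were lowest there. Among the former were Actn3 with 19, 17 and 5 counts and Pvalb with 11, 9 and 6, and the sum, lowest in heart 1, follows Myl1, Casq1 and Mybpc2. The list of slow skeletal markers summed to 7.31, 7.20 and 6.34 TPM over 5 genes, with 1, 3 and 3 counts of the embryonic myosin Myh3. This list holds genes not specific to slow muscle, among them Myoz1 and Myh3, so its sum does not measure slow muscle alone. The part of skeletal muscle RNA in Tnni2 and Tnnt3 was not tested.

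Among 8 atrial markers, 5 had the order of Tnni1 by TPM (Myl7, Myl4, Sln, Tbx5 and Nr2f2), among them the atrial light chain Myl7 at 3644, 2934 and 2728 TPM in hearts 1, 2 and 3. By log2 CPM and without a test, 20.8% of all genes tested had the order of Tnni1. The atrial list summed to 9274, 9447 and 9049 TPM, a sum in which Nppa had the reverse order. Of the 8, 1 varied, against 1.67% of all genes tested. This was Bmp10, a growth factor of the atria, at 51.7, 105 and 87.6 TPM (edgeR adjusted p = 0.00217), which did not pass without heart 1 (1.00) or without heart 2 (0.166). Among 8 conduction markers, 4 had the order of Tnni1, with Cpne5 at 11.2, 6.62 and 5.32 TPM (edgeR adjusted p = 0.110). The list summed to 80.9, 76.7 and 64.2 TPM, and of the 7 tested 0 passed in edgeR, with 1 at an unadjusted p under 0.05 and 0 with the DESeq2 trend.

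Smooth muscle and pericyte markers summed to 938, 1531 and 1797 TPM in hearts 1, 2 and 3, and all 8 were lowest in heart 1. The share of all genes lowest in heart 1 was not computed. Of the 8 markers, 2 were called, Acta2 and Tagln, with 3 at an unadjusted p under 0.05 and 3 called with the DESeq2 trend. Among all genes tested, these shares were 1.67%, 6.18% and 1.3%, which also serve for the erythroid markers below. Neither Acta2 nor Tagln passed without heart 1 (edgeR adjusted p = 0.138 and 0.0904), and Tagln did not pass without heart 2 (0.109) or heart 3 (1.00) either. Erythroid markers summed to 9883, 10828 and 6436 TPM. Of the 7 tested, 3 were called (Hbb-bt, Alas2 and Tfrc), 7 had an unadjusted p under 0.05 and 4 were called with the DESeq2 trend. Those 3 were highest in heart 2, passed without heart 1 and did not pass without heart 2 (edgeR adjusted p = 1.00 for each), and without heart 3 Hbb-bt (0.161) and Alas2 (0.658) did not pass. The part of the atrial, conduction, smooth muscle and erythroid cells in the Tnni1 result was not tested.

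The troponin I and T genes lie in 3 linked pairs, each of 1 troponin I and 1 troponin T gene on the same strand. By RefSeq positions on GRCm38.p6, Tnni1 and Tnnt2 are 25325 bases apart with Lad1 between them. Tnni3 and Tnnt1 are 2329 bases apart with no protein-coding gene between them, and Tnni2 and Tnnt3 are 54360 bases apart with Lsp1 between them. Linked genes did not have like levels in the pair of Tnni1 and Tnnt2 or in that of Tnni3 and Tnnt1. Tnnt2 exceeded Tnni1 by 8.51-, 13.9- and 26.9-fold in hearts 1, 2 and 3 (log2 ratio 3.88 ± 0.833), so the ratio differed between hearts along with Tnni1. Tnni3 exceeded Tnnt1 by 62.0-, 72.7- and 68.8-fold (log2 ratio 6.08 ± 0.117), a narrow range. The fast pair was low on both sides, with Tnni2 over Tnnt3 by a log2 ratio of 1.57 ± 0.336.

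Of the genes that lie inside the pairs, Lad1 had 381, 292 and 233 counts in hearts 1, 2 and 3 and did not pass the test of variation (edgeR adjusted p = 0.550). It had the same order of hearts as Tnni1, with a log2 difference between hearts 1 and 3 of 0.74 against 1.87. Lsp1, a leukocyte protein gene, had 1610, 2087 and 2884 counts and passed (edgeR adjusted p = 0.0318), with the reverse order, but it passed in none of the fits without heart 1, 2 or 3 (edgeR adjusted p = 0.190, 0.127 and 1.00).

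**Figure D5:**
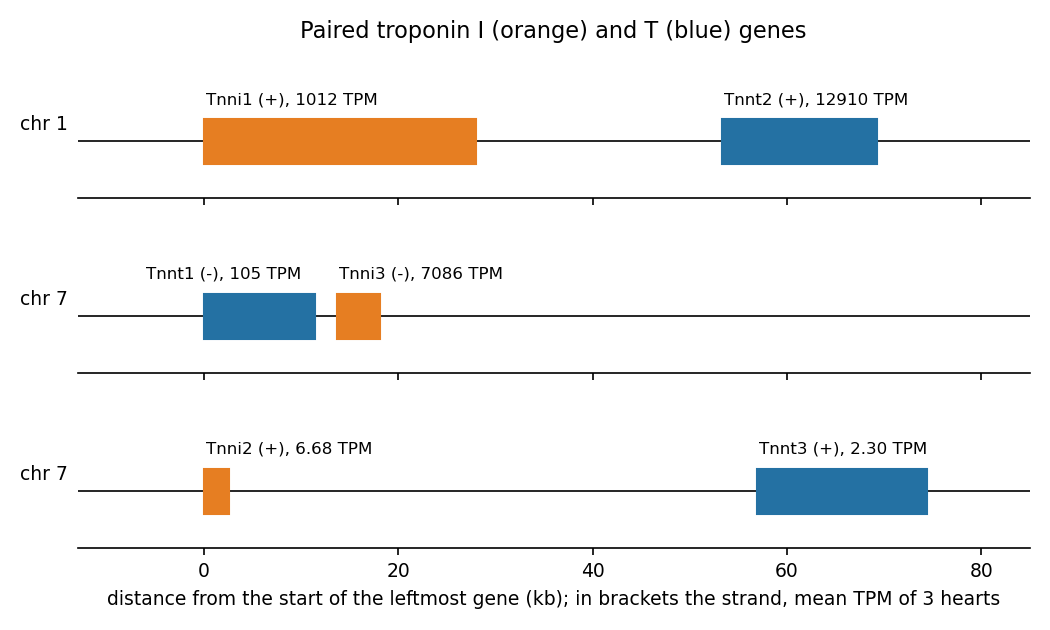
The 3 linked pairs of troponin I genes (orange) and troponin T genes (blue) drawn to scale, with distance from the start of the leftmost gene in kb, and the strand and mean TPM of each gene. The pair on chromosome 1 and the closer pair on chromosome 7 each join a highly abundant gene (Tnnt2, Tnni3) to a less abundant one (Tnni1, Tnnt1), and both genes of the remaining pair are at a mean of 6.68 TPM or less.

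The sequences before the start of Tnni1 and Tnnt2 are shown because these neighbours held the gene that varied between hearts and the most abundant troponin gene, which did not pass that test. They are the 250 bases before the most upstream start that the RefSeq promoter table of GRCm38.p6 lists for each gene, 5′ to 3′, and 6 of the 8 troponin genes had an entry. The positions are chr1:135799171-135799420 (plus strand) for Tnni1 and chr1:135836084-135836333 (plus strand) for Tnnt2. The window of Tnni1 lies within the annotated span of the gene, before an internal start, and the last bases of the Tnnt2 window also lie within its gene. Capitals mark matches on either strand to the E-box CANNTG, bound by myogenic and other factors of its class, to the GATA motif of cardiac GATA factors, and to the MCAT element CATTCC of TEAD factors. The TATA box TATAAA and the GC box GGGCGG were searched as well and had no match in these windows.
Tnni1: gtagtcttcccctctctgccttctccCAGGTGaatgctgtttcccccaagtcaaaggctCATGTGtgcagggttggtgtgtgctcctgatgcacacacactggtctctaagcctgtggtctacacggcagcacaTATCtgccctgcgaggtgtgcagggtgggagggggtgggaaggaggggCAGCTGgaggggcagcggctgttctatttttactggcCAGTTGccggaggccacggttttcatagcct
Tnnt2: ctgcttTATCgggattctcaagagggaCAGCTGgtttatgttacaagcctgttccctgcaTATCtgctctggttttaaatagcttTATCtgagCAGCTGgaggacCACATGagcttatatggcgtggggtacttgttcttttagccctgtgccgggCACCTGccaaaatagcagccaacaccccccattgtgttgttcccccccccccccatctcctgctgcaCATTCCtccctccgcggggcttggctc

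The windows of Tnni1 and Tnnt2 each held 4 E-boxes, those of Tnnc1 and Tnnc2 held 2 each, and those of Tnni3 and Tnnt1 held 1 each. The nearest E-box to the start lay with its first base at -19 in Tnni3, -31 in Tnni1, -88 in Tnnc2, -94 in Tnnt2, -145 in Tnnc1 and -158 in Tnnt1, where -1 is the base just before the start. E-boxes are common letters, found in 66.2% of 32841 promoter windows of this length. GATA occurred 3 times in Tnnt2, 2 times in Tnnc1 and in Tnnc2, once in Tnni1 and in Tnnt1, and not in the Tnni3 window, against 53.6% of all windows with a match. A TATAAA sequence was found in Tnnt1 at -30 (12.4% of all windows hold one), and CATTCC in Tnnt2 at -27 and Tnnc1 at -58 (12.6%). A GGGCGG sequence was found in Tnnt1 at -51 and Tnnc2 at -229 (32.7%). The CArG box and the MEF2 site, found in 1.47% and 2.92% of all windows, had no match in the 6 troponin windows. E-box and GATA matches can share bases, and a match or its lack in these windows shows only which letters are present.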

How the data were processed

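Per the labels, total RNA of day 9 hearts was isolated by the Trizol method and sequenced on DNBSEQ. The deposited table holds read counts and FPKM per gene and heart, per the file headers. Between 87.5% and 87.6% of counts were within 0.005 of a whole number and the rest were fractional, so the values that the authors deposited were treated as estimated counts of reads per gene. The submitters' processing notes name HISAT and the build GRCm38.p6. Which tool and annotation counted the reads, and whether by strand, is not given in the sources used here, so antisense reads could not be told apart. The 2 columns of the authors' means were not used.

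TPM is the deposited FPKM rescaled to 1000000 per heart. Totals were 17766501, 18643408 and 18768094 counts, and 3 counts set the limit of a count of 0. Gene lengths for summed counts were those implied by count and FPKM. Counts were rounded and tested with edgeR 4.0.16 (R 4.3.3, TMM, intercept only, trended dispersion). In a simulation of 12856 genes for this test, 66% of genes changed 2-fold in 1 heart were recovered. Of those changed 4-fold, 100% were recovered, and 4 unchanged genes were called. Simulated dispersions lay exactly on the fitted trend, as the test assumes. The 4 calls therefore give no error rate for real genes off that trend. DESeq2 1.42.0 size factors and dispersion trend were an alternative. Counts of any 2 hearts differed beyond sampling noise (chi-square per degree of freedom 10.1 to 24.9), so each heart is 1 sample. Of the 8 genes, 5 have the same position in the table and in RefSeq, and RefSeq positions are printed.

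The members and lists were chosen with earlier results of these data known. By rule, the text names all troponin genes, the 5 nearest patterns to a troponin gene that varied, at most 5 members of a pathway list that varied, by adjusted p, and at most 3 members of a marker list that varied or had the highest TPM. Every other gene named, among them Ankrd1, Cacna1h, Tagln, Nppa, Igf2, Actn3, Pvalb, Cpne5, Lad1, Lsp1, Myh1, Myh8, Myog, Myh3 and Scgb1a1, and the count of genes more abundant than Tnni1, was chosen after values were seen. In the other marker lists, endothelium, fibroblast and cardiomyocyte (8 genes tested each) and slow muscle and lymphocyte (1 tested each) had 0 genes past the edgeR threshold, with 1, 0, 0, 0 and 0 at an unadjusted p under 0.05 and 0 with the DESeq2 trend.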

Additional observations from a re-analysis of the deposited data

How the results depend on the processing

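Alternatives were other scalings, filters, dispersions, gene lengths and pseudocounts, and leaving out each heart. Tnni1 passed the test of variation under all 8 alternatives (edgeR adjusted p from 1.31e-20, with the DESeq2 trend, to 0.000820, without heart 3), and the other 5 troponin genes tested passed under none. The number of genes that varied was 168 to 264 under the other settings, but 80 to 112 with 1 heart left out, where fewer samples were tested. The count of 8 fetal and newborn heart genes, with alternatives added after seeing the data, was 3 to 7 with 1 heart left out. Of the 20 other genes named as varying, also added after seeing the data, 7 passed without heart 1, 14 without heart 2 and 9 without heart 3. No ratio of genes or sums reversed. Without a length correction the log2 ratio was 7.07 for Tnnt2 over Tnnt1, 5.67 for Tnni3 over Tnnt1, 0.88 for Tnni2 over Tnnt3, and for summed troponins 1.17 (T over I), 1.82 (T over C) and 0.65 (I over C). With the length of the longest GENCODE transcript linked to a RefSeq record it was 5.88 for Tnni3 over Tnnt1 and 0.81 for troponin T over I. With a pseudocount of 1 TPM it was 11.97 for Tnnt2 over Tnnt3, 5.04 for Tnnt1 over Tnnt3, 1.21 for Tnni2 over Tnnt3 and 12.51 for Tnnc1 over Tnnc2. The share of troponin I from Tnni1 was 8.34% to 15.6% with 1 heart left out. No paired analysis was possible because all samples belong to 1 group. Depth limits Tnnc2 and Tnnt3, which had at most 1 and 29 counts in a heart.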
